A study of Homo sapiens with 6 samples.

Results

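Serine is built from the glycolytic intermediate 3-phosphoglycerate, and its side-chain carbon enters the folate cycle, which carries single-carbon units to purines, thymidylate and methionine. The 9 genes described here encode 9 enzymes of that route. PHGDH, PSAT1 and PSPH form the serine synthesis branch. SHMT1 in the cytosol and SHMT2 in mitochondria turn serine into glycine and charge folate. MTHFD1, MTHFD2, MTHFD1L and ALDH1L2 interconvert the folate-bound carbon units or release them. The genes were listed by name and matched to the Ensembl identifiers of the 58395 genes in the files, and all 9 were found and were among the 15566 genes with enough counts to be tested. They were chosen from results of the same comparison between shSTBD1 and shControl cells, so their differences between these groups are a description and carry no p-value.

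HCT116 is an established line of human colorectal cancer cells. The series compares cells infected with a lentivirus for a non-target hairpin (shControl) with cells infected with one for a hairpin against STBD1 (shSTBD1), 3 biological replicates each and 1 RNA-seq library per replicate. STBD1 encodes a glycogen-binding protein that is linked to the delivery of glycogen to lysosomes. All cells grew in DMEM with fetal bovine serum and antibiotics, infected cells were kept in medium with a selection drug, and each group rests on 1 hairpin sequence. Whether each replicate came from a separate infection is not stated, so the spread between libraries may be that between cultures of 1 infected line.

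In proliferating cells the mitochondrial enzymes usually run towards formate, which leaves for the cytosol and is taken up again by MTHFD1. Serine synthesis genes are known targets of ATF4, the transcription factor of the amino acid response, which binds composite C/EBP-ATF elements together with a C/EBP partner. The same factor drives asparagine synthetase and several amino acid transporters, so those genes are described after the enzymes.

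Each library held between 17689097 and 21668274 expected counts in total. STBD1 (chromosome 4, 76306733 to 76311130 of GRCh38, plus strand) held 16.15, 15.66 and 14.4 counts per 1000000 (CPM, scaled by TMM factors) in shControl 1 to 3 and 11.59, 9.058 and 9.178 CPM in shSTBD1 1 to 3. The targeted transcript was thus lower in every shSTBD1 library, with a log2 fold change of -0.64 ± 0.097 (SE, n = 3 against 3; edgeR quasi-likelihood test with Benjamini-Hochberg adjustment, adjusted p = 4.6e-05). Its posterior SD was 7.35% to 10.6% of its count, above the 5% that marks reads shared with other genes. The library shControl 1 stood apart from the other shControl libraries, with a chi-square per gene of 6.21 and 4.98 against them, where the other pairs of replicates lay between 1.65 and 2.05. Of 8 epithelial markers, EPCAM averaged 216.4 CPM and KRT8 averaged 1691 CPM in shControl, and the intestinal factor CDX2 averaged 14.75 CPM, whereas VIL1 averaged 0.211 CPM and CDX1 was at 0. Intestinal markers were thus present in part. Markers of other cell types ranged from 0 for PTPRC to 34.9 CPM for COL1A1 in shControl, and neither of the 2 tested ones passed. CDH1, KRT8, KRT18 and KRT19 rose by 0.20 to 0.29 on the log2 scale (edgeR adjusted p at most 6e-05). CDH1 lost the call with offsets for effective length (log2 fold change 0.315, edgeR adjusted p = 0.065) and, like KRT8, on the TPM scale. On log2(TPM + 1) CDH1 was at 0.28 and KRT8 at 0.20, against 0.29 and 0.22 in the main fit. The summed level of the epithelial list was 3347 to 3586 CPM in shControl and 3972 to 4061 CPM in shSTBD1, that of the other list 34.0 to 42.3 and 40.2 to 44.1 CPM, and their part in the results below was not tested.

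PHGDH and PSAT1 were both lower in every shSTBD1 library, in the comparison on which they were chosen. The upstream sequence of each is shown. The RefSeq table of promoter windows (GRCh38.p14), which run from 250 bases before a start to 50 after it, holds 9 windows for 6 of the 9 enzymes. PHGDH, PSAT1, MTHFD1, MTHFD2 and SHMT1 have 1 window each and MTHFD1L has 4. The 250 bases before the start of PHGDH are chr1:119711684-119711933 and those of PSAT1 are chr9:78296875-78297124, both on the plus strand. The PSAT1 start is the first base of the gene's span given below. The PHGDH start (119711934) lies within the span of its gene, which begins at 119648411. The starts used for MTHFD1, MTHFD1L, MTHFD2 and SHMT1 also lie within the spans of their genes. Capitals mark CCAAT, the box read by the factor NF-Y, which was looked for only after the windows had been read.

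PHGDH: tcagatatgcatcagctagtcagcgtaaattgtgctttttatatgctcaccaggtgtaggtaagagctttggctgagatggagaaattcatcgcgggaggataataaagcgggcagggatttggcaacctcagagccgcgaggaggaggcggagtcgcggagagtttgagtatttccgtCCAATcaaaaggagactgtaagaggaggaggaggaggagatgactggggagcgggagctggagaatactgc
PSAT1: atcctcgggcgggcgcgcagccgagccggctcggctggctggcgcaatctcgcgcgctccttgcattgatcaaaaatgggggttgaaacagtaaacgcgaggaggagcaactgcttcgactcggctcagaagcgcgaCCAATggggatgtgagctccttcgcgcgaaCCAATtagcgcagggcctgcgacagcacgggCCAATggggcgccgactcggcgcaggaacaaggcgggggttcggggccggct

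PHGDH has 1 CCAAT in this window and PSAT1 has 3, the ones nearest to the start lying 71 and 52 bases before it. Counting both strands, CCAAT was present in a window of each of the 6 enzymes, though not in every MTHFD1L window. It was present in 34.6% of all 35116 windows, a share that counts windows and not genes. Neither PHGDH nor PSAT1 held any of the 4 other motifs searched on both strands. These were the C/EBP-ATF element TTGCATCA (0.866% of all windows), the E-box CACGTG read by MYC and related factors (7.26%), the antioxidant response element TGACNNNGC (13.3%) and the cAMP response element TGACGTCA (1.85%). No match to 1 motif overlapped a match to another in these windows.

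Matches to those motifs were found in 3 other members. They are shown as stretches of 30 bases on the plus strand, with the match in capitals. The MTHFD1L stretch (chr6:150866346-150866375) holds the C/EBP-ATF element on the minus strand, and 3 overlapping windows of the gene contain it together with a CACGTG upstream. The MTHFD2 stretch (chr2:74198611-74198640) holds the antioxidant element on the minus strand, and the MTHFD1 stretch (chr14:64388326-64388355) holds an E-box 15 bases before the start.

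MTHFD1L: gccgccggctcTGATGCAAtcgcgccgggc
MTHFD2: ttccctcccgGCGCAGTCAccggcgcggtc
MTHFD1: ccagtccctaagCACGTGggttgggttgtc

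A match says only that these letters stand in the window. PHGDH and PSAT1 lack the exact C/EBP-ATF letters in their windows, and MTHFD1L has them. Variants of these letters and bases outside the windows were not searched. Any part of these matches in the differences between groups was not tested.

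PHGDH encodes phosphoglycerate dehydrogenase, which takes 3-phosphoglycerate out of glycolysis in the first step of serine synthesis (ENSG00000092621, chromosome 1, 119648411 to 119744218, plus strand). Its level was 123.1, 120.9 and 123.5 CPM in shControl 1 to 3 and 87.22, 85.71 and 84.92 CPM in shSTBD1 1 to 3. The groups were far apart and the libraries within a group were close, with coefficients of variation of 1.14% and 1.36%. The log2 fold change was -0.51 ± 0.035 (SE, n = 3 against 3), a ratio of 0.70. In transcripts per 1000000 (TPM), which divide by length, PHGDH stood at 119 ± 2.30 in shControl and 81.1 ± 2.61 in shSTBD1 (SD, n = 3 each), again without overlap.

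PSAT1 encodes the aminotransferase of the second step, which passes an amino group from glutamate to phosphohydroxypyruvate (ENSG00000135069, chromosome 9, 78297125 to 78330093, plus strand). It held 167.6, 174.3 and 173 CPM in shControl and 124.9, 123.3 and 125.3 CPM in shSTBD1. All shSTBD1 libraries lay below all shControl libraries, and the SD in shSTBD1 was only 1.06 CPM. The log2 fold change was -0.46 ± 0.033 (SE), a ratio of 0.73. In TPM the means were 105 ± 4.17 and 75.2 ± 1.33 (SD, n = 3 each).

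PSPH encodes the phosphatase that releases free serine in the last step (ENSG00000146733, chromosome 7, 56011051 to 56051604, minus strand). It was the least abundant of the 3 synthesis genes, with 30.38, 33.29 and 31.51 CPM in shControl and 27.89, 26.62 and 27.53 CPM in shSTBD1. The groups did not overlap in CPM, and the log2 fold change of -0.22 ± 0.059 (SE) was the smallest of the 3. In TPM they did overlap, with 26.62 to 34.27 in shControl and 25.61 to 30.06 in shSTBD1. PSPH was thus lower by counts but not separated per unit of length.

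Summed over the 3 synthesis genes, the level was 254 ± 5.54 TPM in shControl and 184 ± 3.91 TPM in shSTBD1 (SD, n = 3 each). In bulk RNA, fewer cells that express a gene and less of its RNA per cell cannot be told apart.

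**Figure D1:**
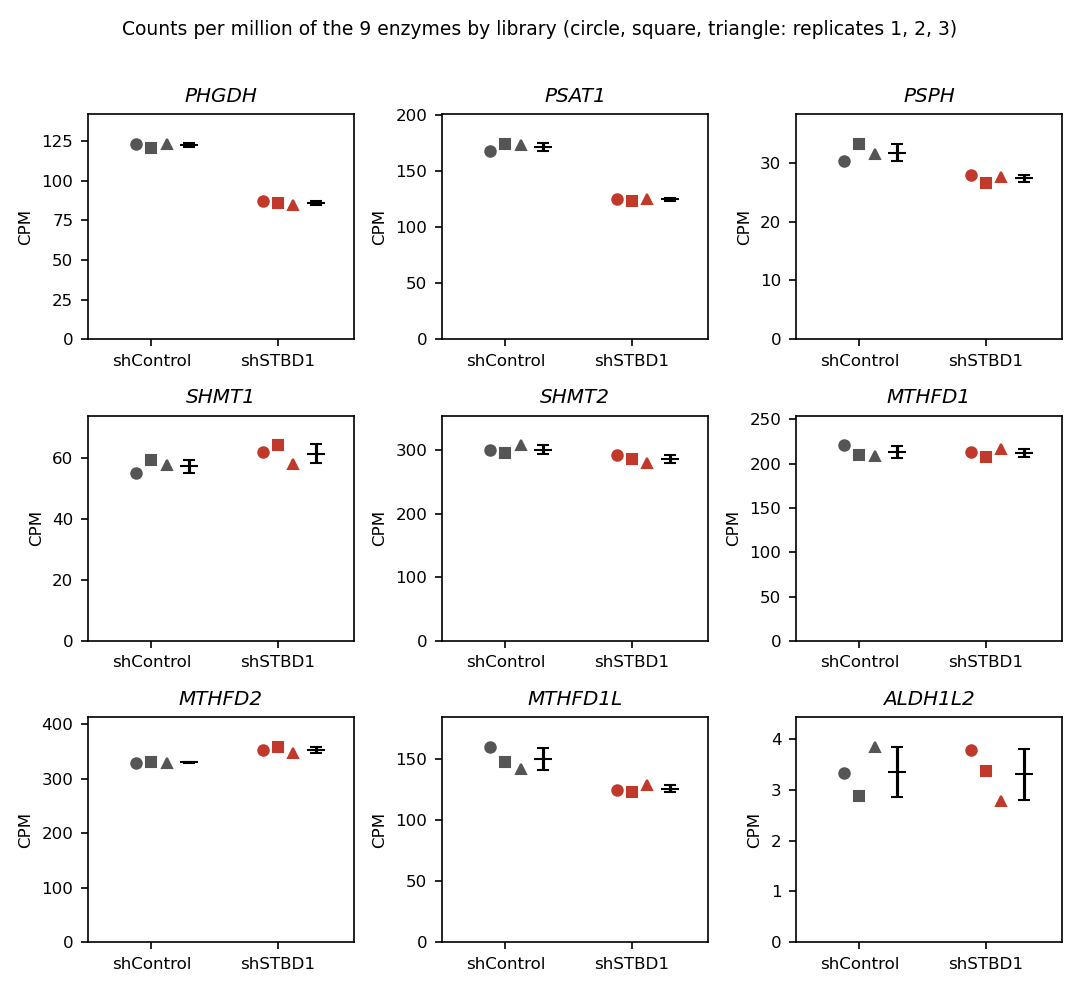
Counts per 1000000, scaled by TMM factors, of the 9 enzymes in each of the 6 libraries, with axes from 0. Points are libraries (circle, square and triangle for replicates 1, 2 and 3) and the black bar is the group mean ± SD; PHGDH and PSAT1 show the widest gap between groups relative to the spread, and SHMT1, MTHFD1 and ALDH1L2 overlap.

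The enzymes that split serine differed little. SHMT2, the mitochondrial form (ENSG00000182199, chromosome 12, 57229573 to 57234935, plus strand), held 299.5, 294.4 and 307.5 CPM in shControl and 292, 286.1 and 279.6 CPM in shSTBD1. The groups were adjacent without overlap, and the log2 fold change was -0.07 ± 0.031 (SE). SHMT1, the cytosolic form (ENSG00000176974, chromosome 17, 18327860 to 18363563, minus strand), held 55.11, 59.3 and 57.72 CPM in shControl and 62.12, 64.33 and 58.19 CPM in shSTBD1. Its groups overlapped, since shSTBD1 3 lay below shControl 2, and the log2 fold change was 0.10 ± 0.047 (SE). In TPM the SHMT1 means stood in the opposite order, at 49.7 ± 3.63 in shControl and 45.6 ± 4.03 in shSTBD1 (SD, n = 3 each), also with overlap. SHMT2 was 5.53 ± 0.347 times as abundant as SHMT1 in shControl and 5.55 ± 0.530 times in shSTBD1 on the TPM scale, a difference smaller than the spread between libraries.

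MTHFD2 and MTHFD1L, both mitochondrial, went in opposite directions. MTHFD2 encodes the dehydrogenase and cyclohydrolase that oxidises the mitochondrial carbon unit (ENSG00000065911, chromosome 2, 74186172 to 74217565, plus strand). It held 328.5, 331.2 and 329.1 CPM in shControl and 353, 358.4 and 346.6 CPM in shSTBD1, higher in each shSTBD1 library, with a log2 fold change of 0.10 ± 0.030 (SE). MTHFD1L encodes the mitochondrial synthetase that releases formate (ENSG00000120254, chromosome 6, 150865679 to 151101887, plus strand). It held 159.7, 147.5 and 141.6 CPM in shControl and 124.6, 123 and 128.8 CPM in shSTBD1. Its groups did not overlap, but shControl 1 was the highest of the 6, and the log2 fold change of -0.25 ± 0.040 (SE) became -0.21 without that library. Within each library, MTHFD2 was 3.16 to 3.79 times as abundant as MTHFD1L in shControl and 4.01 to 4.44 times in shSTBD1 in TPM.

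MTHFD1 encodes the cytosolic enzyme with 3 activities that takes up formate (ENSG00000100714, chromosome 14, 64388031 to 64463457, plus strand). Its CPM ran from 208.5 to 220.8 in shControl and from 207.6 to 216.2 in shSTBD1, overlapping ranges with a log2 fold change of -0.01 ± 0.033 (SE). ALDH1L2, which burns the mitochondrial formyl unit to carbon dioxide with NADPH as a product (ENSG00000136010, chromosome 12, 105019784 to 105107643, minus strand), was rare. It held 64, 60 and 68 expected counts in shControl and 69, 73 and 55 in shSTBD1, which left a log2 fold change of -0.02 ± 0.18 (SE). At this depth a difference of the size seen for PSPH would not have been detectable in ALDH1L2. The 4 folate enzymes together stood at 387 ± 10.2 TPM in shControl and 387 ± 3.97 TPM in shSTBD1 (SD, n = 3 each), and the 2 serine hydroxymethyltransferases at 324 ± 11.1 and 297 ± 4.23 TPM.

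Of the 9 enzymes, 4 were lower (PHGDH, PSAT1, PSPH and MTHFD1L) and 1 higher (MTHFD2) in shSTBD1 once the edgeR p was adjusted (threshold 0.05). The background among tested genes was 7.88% lower, 8.79% higher and 16.7% in either direction. The groups did not overlap for 6 of the 9 in CPM and for 6 in TPM, against 33.6% and 24.4% of all tested genes. Since the list was chosen on this comparison, nothing is read from these counts. The median log2 fold change was -0.07 over the 9 enzymes and 0.0023 over all tested genes.

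The order of levels was the same in both groups. In shControl, SHMT2 was highest at 274 ± 8.63 TPM, followed by MTHFD2 at 206 ± 8.44 TPM. MTHFD1 at 121 ± 4.54 TPM and PHGDH at 119 TPM came next and overlapped between libraries. PSAT1, MTHFD1L, SHMT1 and PSPH followed without overlap between neighbours, and ALDH1L2 was last at 0.86 ± 0.364 TPM. In shSTBD1, MTHFD1 and PHGDH no longer overlapped, with MTHFD1 at 112 ± 4.17 TPM and PHGDH at 81.1 TPM. The ratio of PSAT1 to PHGDH was 0.885 ± 0.0514 in shControl and 0.928 ± 0.0252 in shSTBD1, values that overlapped. In shControl, SHMT2 stood above 97.5% of all tested genes in TPM, PHGDH above 93.8% and PSPH above 72.8%.

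**Figure D2:**
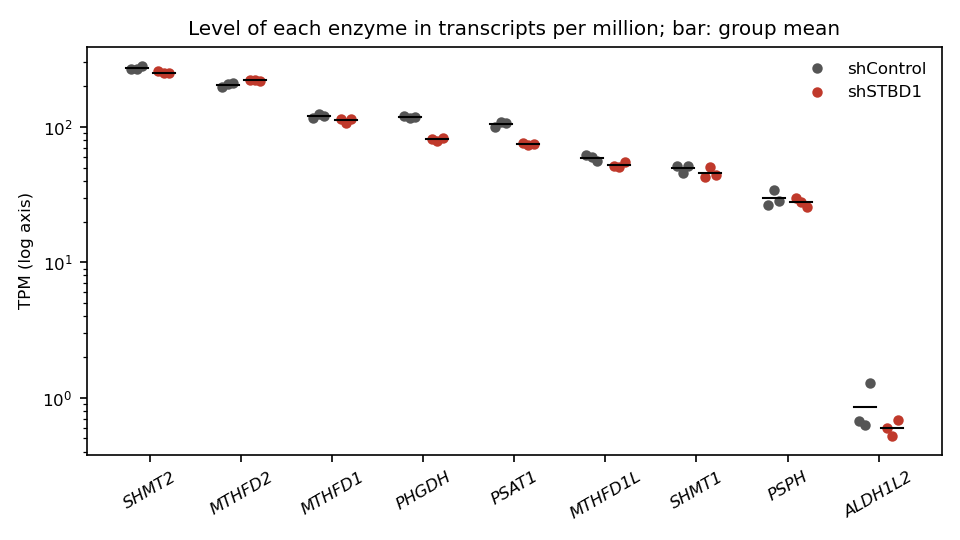
Transcripts per 1000000 on a log axis for the 9 enzymes, ordered by their shControl mean; points are the 3 libraries of each group and bars the group means. SHMT2 and MTHFD2 lead in both groups, ALDH1L2 lies below 1.3 TPM in every library, and PHGDH and PSAT1 are lower in shSTBD1.

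Counts and TPM parted for PSPH, SHMT1, MTHFD1, MTHFD1L and ALDH1L2. The effective length is the mean length of a gene's transcripts after an allowance for fragment length. It is weighted by how much of each transcript RSEM assigned, and TPM divides by it. It was stable for PSAT1, at 1859 to 1877 bases in shControl and 1853 to 1874 in shSTBD1. PHGDH ranged over 1133 to 1212 bases in shControl and 1142 to 1222 in shSTBD1, overlapping ranges. PHGDH and PSAT1 were thus lower by counts and per unit of length alike.

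MTHFD1L was the only member whose effective length did not overlap between groups, with 2870 to 2894 bases in shControl and 2635 to 2733 in shSTBD1. With offsets for effective length its log2 fold change was -0.16 and no longer passed the threshold. For SHMT1 the effective length ran from 1188 to 1523 bases in shControl and from 1433 to 1660 in shSTBD1, and the log2 fold change turned from 0.10 to -0.10 with the offsets. PSPH, at 1135 to 1283 bases in shControl and 1054 to 1207 in shSTBD1, went from -0.22 to -0.07 and no longer passed. MTHFD1 ran from 116 to 125 TPM in shControl and from 108 to 115 TPM in shSTBD1, without overlap, although its CPM overlapped, and its log2 fold change was -0.08 with the offsets. ALDH1L2 spanned 3450 to 5530 bases in shControl and 4596 to 7197 in shSTBD1, and its log2 fold change went from -0.02 to -0.47. Whether these shifts reflect the transcripts present or their estimation was not tested. Reads shared with other genes were not at issue, since the posterior SD of the count was at most 0.0327% of the count for every member.

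**Figure D3:**
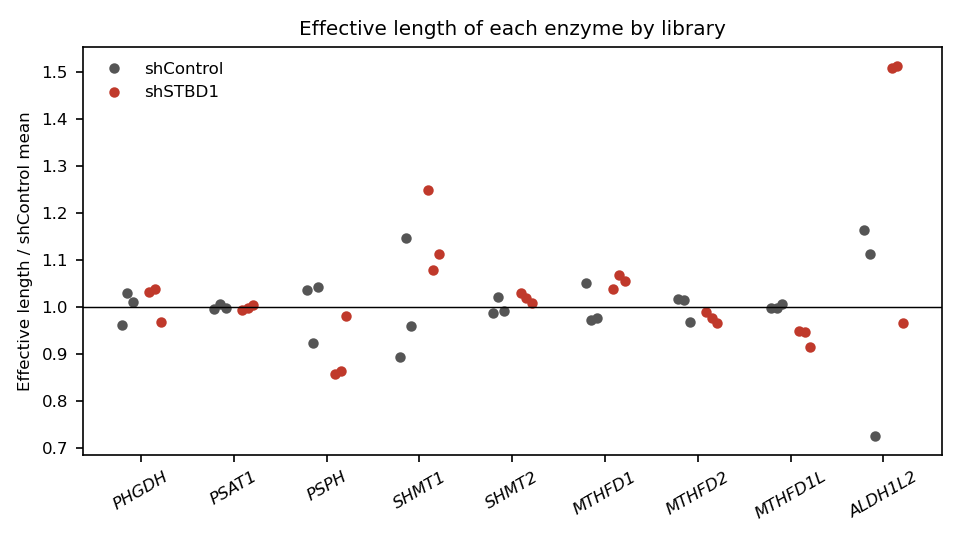
RSEM effective length of each enzyme in each library, divided by the mean of the shControl libraries; points are libraries. PSAT1 stays at 1 in all 6, MTHFD1L is shorter in all 3 shSTBD1 libraries, and ALDH1L2 scatters most.

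Across the alternatives, PHGDH lay between -0.55 and -0.50 and PSAT1 between -0.48 and -0.45 on the log2 scale. Leaving out 1 library kept PHGDH between -0.52 and -0.50 and PSAT1 between -0.48 and -0.45. Calls were counted over 17 fits, the main one included, in which 290 to 2824 of all genes passed. The members were chosen on this comparison, so these counts are a description only. PSPH passed in 12 of 17 and among the fits that leave out 1 library lost the call without shControl 2 or without shSTBD1 2. MTHFD2 passed in 10 of 17, and of the 6 fits that leave out 1 library only those without shControl 1 and without shControl 2 kept the call. SHMT2 passed in 2 of 17, without shControl 1 at -0.08 and with offsets for a length trend at -0.10. MTHFD1L passed in 14 of 17, all but those with effective length offsets or TPM.

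**Figure D4:**
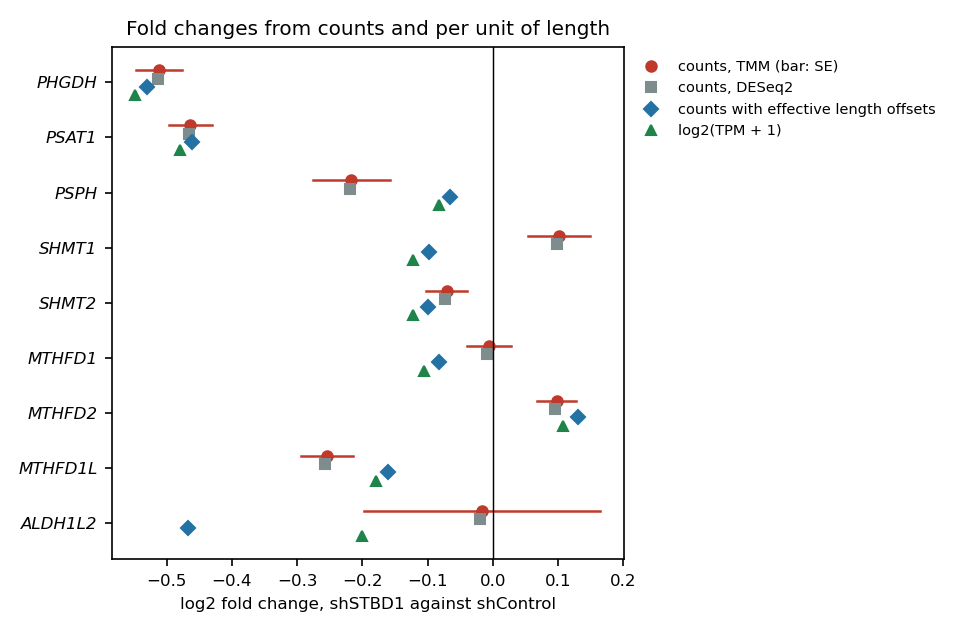
Log2 fold change of each enzyme, shSTBD1 against shControl, from counts (edgeR with TMM, bar ± SE; DESeq2) and per unit of length (edgeR with effective length offsets; log2(TPM + 1)). The 4 values nearly coincide for PHGDH and PSAT1, change sign for SHMT1 and spread widely for ALDH1L2.

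Genes whose profile over the 6 libraries lay nearest to PHGDH were sought by the root-mean-square difference of log2 CPM, each gene centred on its own mean, among 10123 genes at 10 CPM or more. The 5 nearest to PHGDH were ENC1 (0.018), the transcription factor FOXC1 (0.022), the Notch ligand JAG1 (0.030), PSAT1 (0.037) and PCK2 (0.038), which encodes mitochondrial phosphoenolpyruvate carboxykinase. For PSAT1 they were JAG1 (0.026), ARHGAP18 (0.035), PHGDH (0.037), ENC1 (0.037) and the homeobox gene HOXB9 (0.038). The log2 fold changes of these genes ran from -0.54 for PCK2 to -0.40 for ARHGAP18. The measure is set mostly by the difference between the groups, on which PHGDH and PSAT1 were chosen, so their nearness to each other restates their fold changes.

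Of 49 further genes of serine, folate and methionine metabolism, 40 were tested, 2 rose, 2 fell and 36 did not pass (edgeR quasi-likelihood test with Benjamini-Hochberg adjustment over all tested genes). The share called in either direction over all tested genes was 16.7%. These genes and the lists below were chosen with earlier results of these data known. Their p-values are thus a description and no independent evidence. The median log2 fold change of the 40 was -0.01, with a range from -0.45 for DHFR2, a dihydrofolate reductase, to 0.53 for FOLR1, a folate receptor. Neither of these passed (edgeR adjusted p = 0.095 and 0.12), and they averaged 3.71 and 1.75 CPM in shControl. Among 8 genes of folate uptake and carriers, 2 fell. SLC46A1, the proton-coupled folate transporter, averaged 41.7 ± 2.47 CPM in shControl and 36.7 ± 1.28 CPM in shSTBD1 (SD, n = 3 each; log2 fold change -0.18 ± 0.055 SE, edgeR adjusted p = 0.024). SFXN1, the mitochondrial serine carrier, went from 187 to 176 CPM (log2 fold change -0.09 ± 0.032 SE, edgeR adjusted p = 0.045).

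None of the 9 tested further folate cycle enzymes passed, nor did any of the 4 genes of the glycine cleavage system or the 6 tested genes of serine use. CTH, the last enzyme of transsulfuration, was the 1 of 9 tested genes of the methionine cycle and transsulfuration that rose, from 8.71 to 10.6 CPM (log2 fold change 0.29 ± 0.096 SE, edgeR adjusted p = 0.039). CBS, the enzyme before it, averaged 0.110 CPM in shControl and was not tested. PGK1, which makes 3-phosphoglycerate, rose from 702 to 761 CPM (log2 fold change 0.12 ± 0.029 SE, edgeR adjusted p = 0.0069), as 1 of 4 tested genes at that branch point. None of these 4 calls held with effective length offsets or on the TPM scale. Fewer of all tested genes passed there (556 with the offsets and 292 on log2(TPM + 1), against 2595). With the offsets the log2 fold changes were -0.22 for SLC46A1, -0.14 for SFXN1, 0.31 for CTH and 0.105 for PGK1. On log2(TPM + 1) they were -0.22, -0.16, 0.25 and 0.08 in that order. When 1 library was left out, SFXN1 and CTH passed in 1 of 6 fits, the one without shControl 1. SLC46A1 lost the call without shControl 3, shSTBD1 2 or shSTBD1 3, and PGK1 without shSTBD1 1 or shSTBD1 3.

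The 7 regulators of the pathway gave 1 rise, 2 falls and 4 that did not pass, where 16.7% of all tested genes passed in either direction. ATF4 itself held 308.1, 362.8 and 349.1 CPM in shControl and 322.9, 315.4 and 322.7 CPM in shSTBD1. The groups overlapped because shControl 1 lay below every other library, and the log2 fold change of -0.09 ± 0.050 (SE) did not pass (edgeR adjusted p = 0.28). Without shControl 1, the library that stood apart, it was -0.16 and passed (edgeR adjusted p = 1.5e-06). ATF4 passed in no other fit that left out 1 library (edgeR adjusted p = 0.37 to 0.63). CEBPG, a C/EBP partner of ATF4, fell by 0.17 on the log2 scale (edgeR adjusted p = 0.0059). NFE2L2, the antioxidant response factor, fell by 0.14 on that scale (edgeR adjusted p = 0.017). MYC rose, with a log2 fold change of 0.12 (edgeR adjusted p = 0.012). Of these 3, CEBPG alone kept its call in 6 of 6 fits that leave out a library. NFE2L2 kept it only without shControl 1 or shSTBD1 1, and MYC lost it without shSTBD1 1 or shSTBD1 2. With effective length offsets MYC was the 1 regulator that passed.

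Of 12 other known ATF4 targets, 10 were tested, 5 fell, 2 rose and 3 did not pass, with a median log2 fold change of -0.14. Over all tested genes 7.88% were lower and 8.79% higher. This list too was chosen with earlier results of these data known, so its counts and p-values are a description. SLC7A11, the cystine importer, held 72.35, 75.15 and 77.71 CPM in shControl and 48.4, 43.77 and 47.15 CPM in shSTBD1 (log2 fold change -0.69 ± 0.047 SE, edgeR adjusted p = 2.3e-10). ASNS, asparagine synthetase, held 148.7, 149 and 154.9 CPM in shControl and 101.4, 101 and 98.23 CPM in shSTBD1 (log2 fold change -0.59 ± 0.035 SE, edgeR adjusted p = 2.1e-11). Neither gene overlapped between groups. CHAC1, which degrades glutathione, fell from 12.2 ± 0.677 to 7.78 ± 0.413 CPM (SD, n = 3 each; log2 fold change -0.64 ± 0.097 SE, edgeR adjusted p = 4.5e-05).

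SLC7A5 and SLC3A2, the light and heavy chains of a transporter of large neutral amino acids, fell by 0.23 and 0.14 on the log2 scale (edgeR adjusted p = 2.8e-05 and 0.0035). DDIT4, an inhibitor of mTORC1, rose from 318 to 389 CPM (log2 fold change 0.29 ± 0.031 SE, edgeR adjusted p = 2.2e-07). ATF3, a stress-induced factor, rose from 19.2 to 25.1 CPM (log2 fold change 0.39 ± 0.071 SE, edgeR adjusted p = 0.00036). Calls on this list thus went in both directions, and any part of ATF4 in them was not tested. With effective length offsets 4 targets fell (SLC7A11, ASNS, CHAC1 and SLC7A5) and DDIT4 and ATF3 rose. The 7 calls held in 6 of 6 fits that leave out a library.

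**Figure D5:**
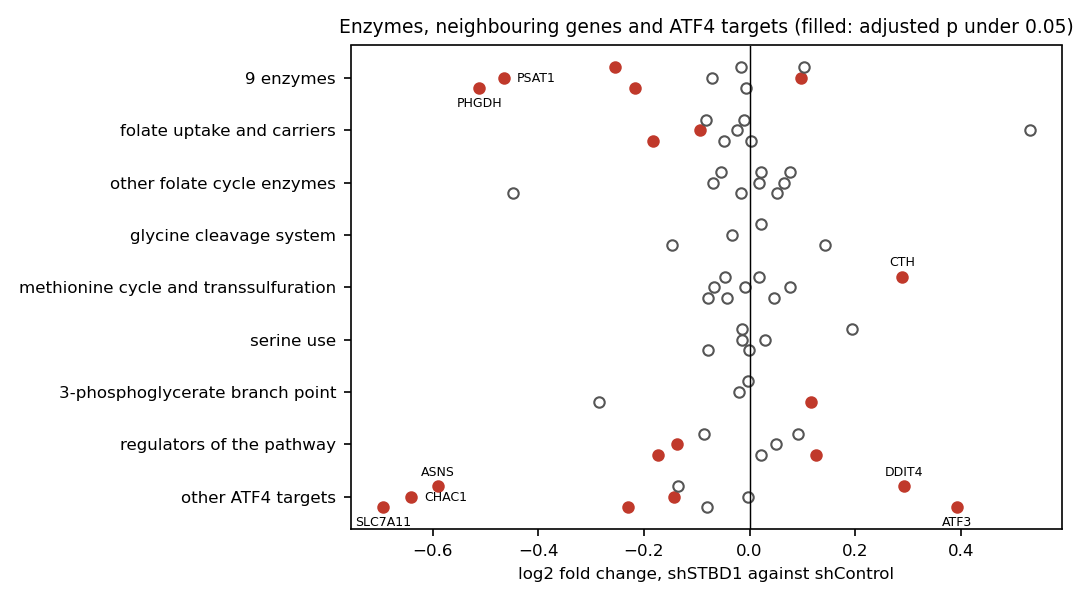
Log2 fold change, shSTBD1 against shControl, of every tested gene in the 9 enzymes and 8 further lists; filled points passed an adjusted p under 0.05 (edgeR), open points did not. PHGDH and PSAT1 lie with SLC7A11, ASNS and CHAC1 at the left, whereas the ATF4 targets DDIT4 and ATF3 lie at the right. Of the 10 tested ATF4 targets 3 are open points. The neighbouring pathway genes run from -0.45 to 0.53, with open points at both ends (DHFR2 and FOLR1).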

How the data were processed

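Per the labels, total RNA of 3 shControl and 3 shSTBD1 HCT116 replicates was sequenced in pairs of reads. The authors aligned reads to Hg38 (Ensembl release 93) with STAR 2.7.1a and deposited RSEM 1.3.1 output. The deposited expected counts are not normalized, the deposited TPM are scaled by the authors to 1 total per library, and the authors' effective length and posterior SD of the count are in bases and counts. Whether counting used strand is not given in the sources used here.

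Of 58395 genes, 57754 matched a symbol; positions are GENCODE release 44. Expected counts were rounded, filtered (filterByExpr), scaled by TMM and tested with edgeR 4.0.16 (quasi-likelihood, Benjamini-Hochberg, threshold 0.05; R 4.3.3) on all genes. Each SE of a log2 fold change is the absolute log2 fold change divided by the square root of the quasi-likelihood F. Groups came from the labels. Alternatives were DESeq2 1.42.0, other scalings and filters, length offsets, limma 3.58.1 on log2(TPM + 1) and log2(TPM + 0.1), a replicate block and leaving out each library. Scripts were tested on simulated counts. These held no differences in length, so they did not test the effective length offsets or the division by length in TPM. One gene of the regulator list is not reported here. Members and lists were chosen with earlier results of these data known.

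Named genes were the members, STBD1, ATF4, up to 6 called genes per list and the 5 nearest profiles of PHGDH and PSAT1; VIL1, CDX1, PTPRC, COL1A1, EPCAM, CBS, CDX2, DHFR2, FOLR1 and SLC3A2 were named after their values were seen. Intervals of replicates cover these libraries only.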

Additional observations from a re-analysis of the deposited data

How the results depend on the processing

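PHGDH and PSAT1, chosen on this comparison, kept their direction in every fit. Over all genes, 2595 passed, against 1693 with DESeq2, 556 with effective length offsets (62.8% of them higher, against 52.8%), 292 on log2(TPM + 1) and 290 on log2(TPM + 0.1). Leaving out 1 library gave 1557 to 2824 genes. With effective length offsets or on either TPM scale, 2 enzymes were lower and 0 higher. Over all tested genes, 207 were lower and 349 higher with the offsets, and 114 and 178 on log2(TPM + 1). The main fit gave 1226 lower and 1369 higher. With a length trend 5 enzymes were lower, where 1285 of all tested genes were lower. Leaving out 1 library gave 3 to 5 enzymes lower and 0 to 1 higher. The median of the enzymes was -0.12 on log2(TPM + 1) and -0.13 on log2(TPM + 0.1), and -0.118 to -0.054 without 1 library. Of the neighbouring pathway genes, 4 passed, against 1 with DESeq2, 2 without a filter, 2 with a length trend, 0 with effective length offsets and 0 on either TPM scale, and 0 to 6 without 1 library (0 without shSTBD1 3). Of regulators and ATF4 targets, 10 passed, against 7 with effective length offsets, where 556 of all tested genes passed. On either TPM scale 6 passed, where 292 and 290 of all tested genes did. Without 1 library 8 to 12 passed. STBD1 no longer passed on log2(TPM + 1) (-0.54, limma adjusted p = 0.065) and log2(TPM + 0.1) (-0.65, limma adjusted p = 0.067). ATF4 passed with a length trend (-0.12, edgeR adjusted p = 0.046). The cause of these shifts was not tested. No called enzyme or called list gene named here reversed under these alternatives, which were not tabulated for the genes of nearest profile, and SHMT1, not called, turned from 0.10 to -0.10, -0.12 and -0.13 with effective length offsets and on the 2 TPM scales.

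Same-numbered libraries correlated at 0.0708, 0.0676 and -0.00841 in their deviations, so the numbers were not taken to pair samples. With the replicate block, 2798 genes passed over all, 4 enzymes were lower and 1 higher, the median of the enzymes was -0.07, 4 neighbouring genes and 10 regulators and targets passed, and STBD1 was at -0.64. At 55 to 73 counts, depth limits ALDH1L2 most.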
